A study of Mus musculus with 18 samples.

Results

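Hox genes were described in immortalised mouse embryonic fibroblasts that make or lack T-N1G, a tethered Nrf1-MafG heterodimer. The genes were chosen by symbol, as every gene named Hoxa, Hoxb, Hoxc or Hoxd with a number, and by depth, as those with at least 10 fragments in at least 3 of the 18 libraries. Of 39 such Hox genes in the table of 24318 genes, 31 met both conditions, namely 10 of 11 in the Hoxa cluster, 9 of 10 in Hoxb, 9 of 9 in Hoxc and 3 of 9 in Hoxd. All 31 also passed the expression filter of the test. Within the family, measured values entered the choice of genes only as this minimum depth. The family itself was chosen with earlier results of these data known. Just inside it were Hoxd4, with 10 or more fragments in 10 libraries, and Hoxa2, with 10 or more in 12, and just outside was Hoxd3, which reached 10 in 1 library.

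The libraries form 6 groups of 3. The T-N1G cells have the genotype MafF-/-::MafG-/-::MafK-/-:T-NG1, as the labels spell it, and the mock cells have the genotype MafF-/-::MafG-/-::MafK-/-. Both lines therefore lack all 3 small Maf genes, and each received vehicle, 0.3 µM or 1.0 µM of MG132, a proteasome inhibitor, for 12 h. Which promoter drives T-N1G, and whether a line is 1 clone, is not given in the sources used here, and no label says whether libraries of 1 group are separate cultures. The p-values thus refer to the spread among these libraries alone, and that spread may be technical.

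Hox genes encode homeodomain transcription factors and lie in 4 clusters, in an order along the chromosome that follows the order in which they act along the body axis. Low paralogue numbers act towards the head, and high numbers act towards the tail and the tip of the limb. Fibroblasts keep a pattern of active and silent Hox genes that reflects the place in the body from which they came, and Polycomb and Trithorax proteins hold that pattern on chromatin.

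Library totals were 18164382 to 21196909 fragments. Mafg was read with 3079 to 69014 fragments in the 9 T-N1G libraries and with 6 to 25 in the 9 mock libraries, so every library matched its line, and Nfe2l1, which encodes Nrf1, averaged 1102 ± 74.4 CPM (counts relative to the library total after TMM scaling) in T-N1G cells and 279.9 ± 7.03 CPM in mock cells under vehicle (SD, n = 3 each). RNA of the T-N1G construct moved with the dose: Nfe2l1 averaged 4637 ± 543 CPM at 0.3 µM and 17010 ± 3890 CPM at 1.0 µM in T-N1G cells, against 376 ± 16.8 and 315 ± 18.6 CPM in mock cells. Mafg averaged 159 ± 15.6, 814 ± 105 and 3290 ± 829 CPM in T-N1G cells from vehicle to 1.0 µM, and at most 1.09 ± 0.196 CPM in mock cells. Fibroblast markers were present, with a summed level of 9420 to 10200 CPM over 10 markers in T-N1G cells and 9320 to 10200 CPM in mock cells under vehicle. The leukocyte marker Tyrobp and the neural marker Sox2 were at 0 in every library, but other markers of their lists were read. Under vehicle the 5 neural markers summed to 331 to 370 CPM in T-N1G and 342 to 364 CPM in mock cells. The 6 leukocyte markers summed to 2.04 to 3.13 and 3.15 to 3.75 CPM. Libraries at 1.0 µM spread further apart, with a median SD of log2 CPM over the 31 Hox genes of 0.376 in T-N1G and 0.279 in mock cells, against 0.171 and 0.147 under vehicle.

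In mm9, the build of the deposited positions, Hoxa covers chr6:52105366-52210874, Hoxb chr11:96055675-96229567, Hoxc chr15:102751562-102867283 and Hoxd chr2:74506367-74603199. Nfe2l1 lies on the same chromosome as Hoxb, 449 kb beyond its last base. The deposited tables give 1 shared position to Hoxa3, Hoxa4, Hoxa5 and Hoxa6, 1 to Hoxb5 and Hoxb6, 1 to Hoxd3 and Hoxd4, and 1 to Hoxa11 and its antisense gene Hoxa11os. The strand setting of the counting is not given in the sources used here, so the counts of these neighbours are uncertain.

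The promoters of 3 genes are shown because they stand for the patterns described below. Hoxa11 and Hoxb4 fell in T-N1G cells at 1.0 µM MG132, with a lower response than in mock cells, where neither passed the test. Hoxd8 fell in both lines. The sequences are RefSeq promoter windows of GRCm38.p6, a later build than that of the deposited positions, from 250 bases before to 50 bases after the start of transcription. They run 5′ to 3′ along the gene's strand, with CG dinucleotides in capitals. Hoxa11 is at chr6:52245761-52246060 on the minus strand, Hoxb4 at chr11:96318017-96318316 on the plus strand and Hoxd8 at chr2:74704365-74704664 on the plus strand.
Hoxa11: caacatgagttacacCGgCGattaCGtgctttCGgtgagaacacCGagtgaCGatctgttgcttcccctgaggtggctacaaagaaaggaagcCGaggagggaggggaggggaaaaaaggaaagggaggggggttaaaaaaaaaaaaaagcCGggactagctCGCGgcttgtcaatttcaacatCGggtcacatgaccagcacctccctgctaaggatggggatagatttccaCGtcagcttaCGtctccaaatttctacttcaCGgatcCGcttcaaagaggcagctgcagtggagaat
Hoxb4: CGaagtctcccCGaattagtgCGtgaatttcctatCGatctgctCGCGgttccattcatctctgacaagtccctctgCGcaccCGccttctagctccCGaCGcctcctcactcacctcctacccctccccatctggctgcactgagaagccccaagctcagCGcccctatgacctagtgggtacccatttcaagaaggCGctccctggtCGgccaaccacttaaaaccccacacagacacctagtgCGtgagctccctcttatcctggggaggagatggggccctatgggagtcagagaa
Hoxd8: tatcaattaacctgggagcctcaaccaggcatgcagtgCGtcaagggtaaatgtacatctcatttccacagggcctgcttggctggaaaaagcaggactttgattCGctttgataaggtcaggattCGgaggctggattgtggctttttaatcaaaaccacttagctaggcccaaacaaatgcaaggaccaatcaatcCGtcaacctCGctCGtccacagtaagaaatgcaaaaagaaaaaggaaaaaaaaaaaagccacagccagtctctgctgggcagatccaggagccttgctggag
The Hoxa11 window holds 15 CG dinucleotides, the Hoxb4 window 14 and the Hoxd8 window 6. RefSeq windows were matched by symbol for 14 of the 31 Hox genes (15 windows), whose median was 13 CG dinucleotides, against 7 over all 32851 windows. The core TGACNNNGC, searched on both strands as a stand-in for the element that CNC and small Maf proteins bind, was in 1 of the 15 Hox windows, that of Hoxa6 (6.67%, against 12.4% of all windows). TATAAA, also searched on both strands, was in 3 windows, those of Hoxa10, Hoxb8 and Hoxd4 (20%, against 13.6%). A match or its absence describes only the letters of the window.

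Under vehicle, RNA of the Hoxb and Hoxc clusters was read up to their number 13 genes and that of Hoxa up to Hoxa11, while Hoxd gave little. Compared per length, as FPKM (fragments scaled to gene length and library total), the mean level over all 18 libraries was 5 or more in 10 genes and under 1 in 4. Under vehicle Hoxb9, which shapes the thoracic ribs, had 22.5 ± 2.76 FPKM in T-N1G and 35.3 ± 2.52 FPKM in mock cells. Hoxa10, which acts in the lumbar spine and the uterus, had 24.5 ± 1.07 FPKM in T-N1G and 17.6 ± 1.02 FPKM in mock cells, so it led in T-N1G cells and Hoxb9 led in mock cells. Hoxc6, a gene of the thoracic region, had 19.7 ± 0.782 FPKM in T-N1G and 17.6 ± 1.17 FPKM in mock cells. Hoxa9, known for its part in blood stem cells and leukaemia, had 15.1 ± 1.49 FPKM in T-N1G and 10.2 ± 0.668 FPKM in mock cells. These 4 genes held 45.5% of the summed mean FPKM of the 31, and the clusters held 26.7% (Hoxa), 43.2% (Hoxb), 28.5% (Hoxc) and 1.6% (Hoxd).

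**Figure D1:**
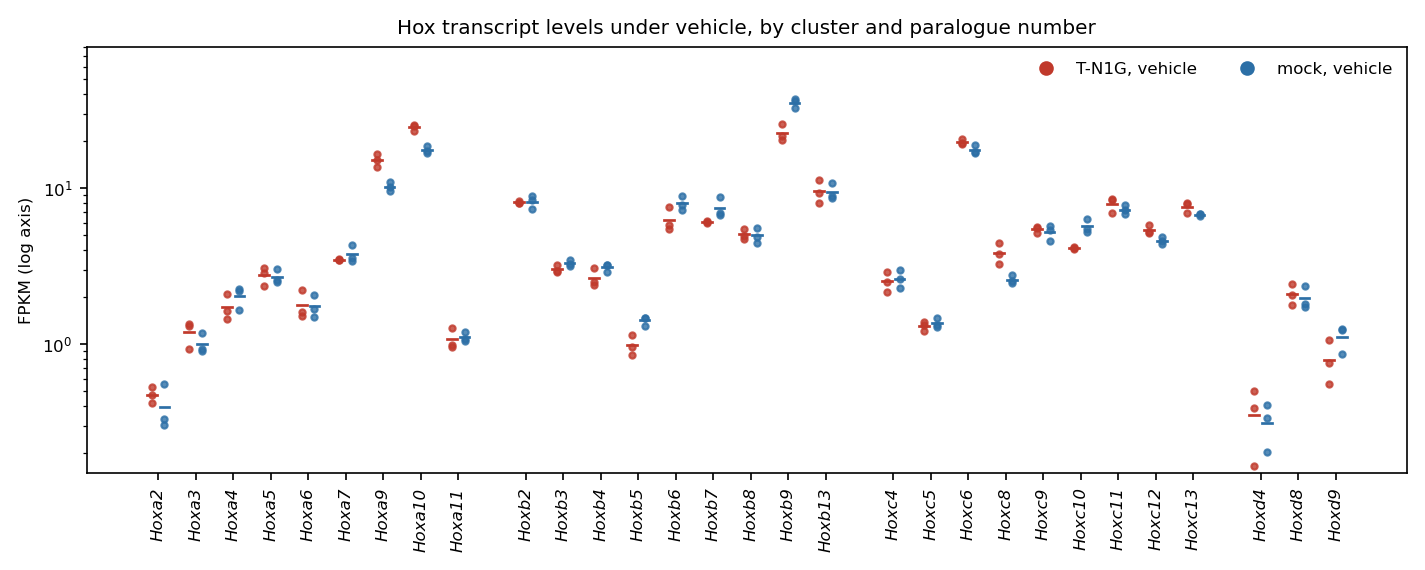
FPKM of Hox genes under vehicle on a log axis, by cluster and paralogue number; points are libraries and lines are means, with T-N1G cells left of mock cells (3 libraries each). Hoxb9, Hoxa10, Hoxc6 and Hoxa9 are the highest, and Hoxa2 and Hoxd4 the lowest.

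Below these, Hoxb13, a gene of the prostate and the tail, had 9.52 ± 1.58 FPKM in T-N1G and 9.44 ± 1.18 FPKM in mock cells, and Hoxb2, needed for the facial nerve's motor neurons, had 8.10 ± 0.145 FPKM in T-N1G and 8.19 ± 0.809 FPKM in mock cells. Hoxc11, a gene of the hind limb, had 7.92 ± 0.857 FPKM in T-N1G and 7.27 ± 0.468 FPKM in mock cells. Hoxc13, which switches on hair and nail keratin genes, had 7.59 ± 0.598 FPKM in T-N1G and 6.74 ± 0.129 FPKM in mock cells. In the Hoxd cluster the highest level was that of Hoxd8, with 2.09 ± 0.325 FPKM in T-N1G and 1.96 ± 0.346 FPKM in mock cells, and Hoxd4 had 0.354 ± 0.171 FPKM in T-N1G and 0.315 ± 0.103 FPKM in mock cells. Neighbours in this order lay close together, and the means of Hoxb13 and Hoxb2 in T-N1G cells differed by less than the SD of Hoxb13.

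The 8 Hox genes below the minimum depth were near 0. Hoxb1 and Hoxd12 had 0 fragments in all 18 libraries, and Hoxa13, Hoxd1, Hoxd3, Hoxd10, Hoxd11 and Hoxd13 had at most 11 fragments in any library. They were not tested. Of these 8, Hoxa13, Hoxd11, Hoxd12 and Hoxd13 are genes of the hand, foot and tail, while Hoxb13, Hoxc12 and Hoxc13 of the same end of their clusters were read in every library.

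Without MG132, the share of Hox genes that differed between the lines was near that of all genes. Under vehicle, 3 of 31 were higher in T-N1G than in mock cells and 1 was lower at an adjusted p under 0.05 (edgeR's quasi-likelihood test, Benjamini-Hochberg over 13258 genes), where 16.1% of all genes tested passed (8.43% higher, 7.72% lower). The median log2 difference was 0.02 over the 31 Hox genes and 0 over all genes. Hoxa9 had 50.7, 42.1 and 46.7 CPM in T-N1G cells, against 31.2, 29.7 and 33.6 CPM in mock cells, a log2 difference of 0.56 ± 0.14, adjusted p = 0.00895. Hoxa10 had 54.5, 50.02 and 54.0 CPM in T-N1G cells, against 37.3, 36.2 and 39.6 CPM in mock cells, a log2 difference of 0.49 ± 0.12, adjusted p = 0.00963. For both, every T-N1G library was above every mock library.

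Hoxc8, which patterns the lower neck and upper trunk, had 10.2, 8.65 and 7.46 CPM in T-N1G cells, against 6.40, 5.79 and 5.57 CPM in mock cells, a log2 difference of 0.57 ± 0.18, adjusted p = 0.0408. Hoxb9 went the other way, with 53.4, 56.6 and 67.1 CPM in T-N1G cells, against 85.8, 94.9 and 97.9 CPM in mock cells, a log2 difference of -0.65 ± 0.11, adjusted p = 0.000458. The libraries of the lines did not overlap for either gene. Beside the Hoxb9 result, the median difference of the 9 Hoxb genes was -0.23, and that of the 1100 other genes tested on chromosome 11 was -0.22 (30 higher, 273 lower), against -0.07, -0.01 and 0 for the other genes of chromosomes 6, 15 and 2, which carry Hoxa, Hoxc and Hoxd. The part of the chromosome in the Hoxb difference was not tested. The calls of Hoxa10 and Hoxb9 held under every alternative. That of Hoxa9 was lost without T-N1G vehicle library 1 (log2 0.49, adjusted p = 0.0557) or mock vehicle library 2 (0.52, 0.0520), and that of Hoxc8 without any 1 of 7 libraries, with an adjusted p of up to 0.186 without T-N1G vehicle library 1.

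MG132 lowered most Hox genes in T-N1G cells and fewer in mock cells. At 0.3 µM, 17 of 31 fell and 0 rose in T-N1G cells, where 59.4% of all genes passed (29.1% higher, 30.3% lower), and the median log2 fold change against vehicle was -0.44 over the Hox genes and -0.01 over all genes. In mock cells at this dose 7 fell and 3 rose, where 53.1% of all genes passed (25% higher, 28.1% lower), with medians of -0.17 and -0.02. At 1.0 µM, 25 of 31 fell and 0 rose in T-N1G cells (76.4% of all genes passed, 37.5% higher and 38.9% lower), with medians of -1.05 and -0.01. In mock cells at 1.0 µM, 10 fell and 2 rose (69.7% of all genes passed, 32.4% higher and 37.4% lower), with medians of -0.31 and -0.04. The background is large, and it is balanced between the directions where the Hox calls in T-N1G cells all went down.

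**Figure D2:**
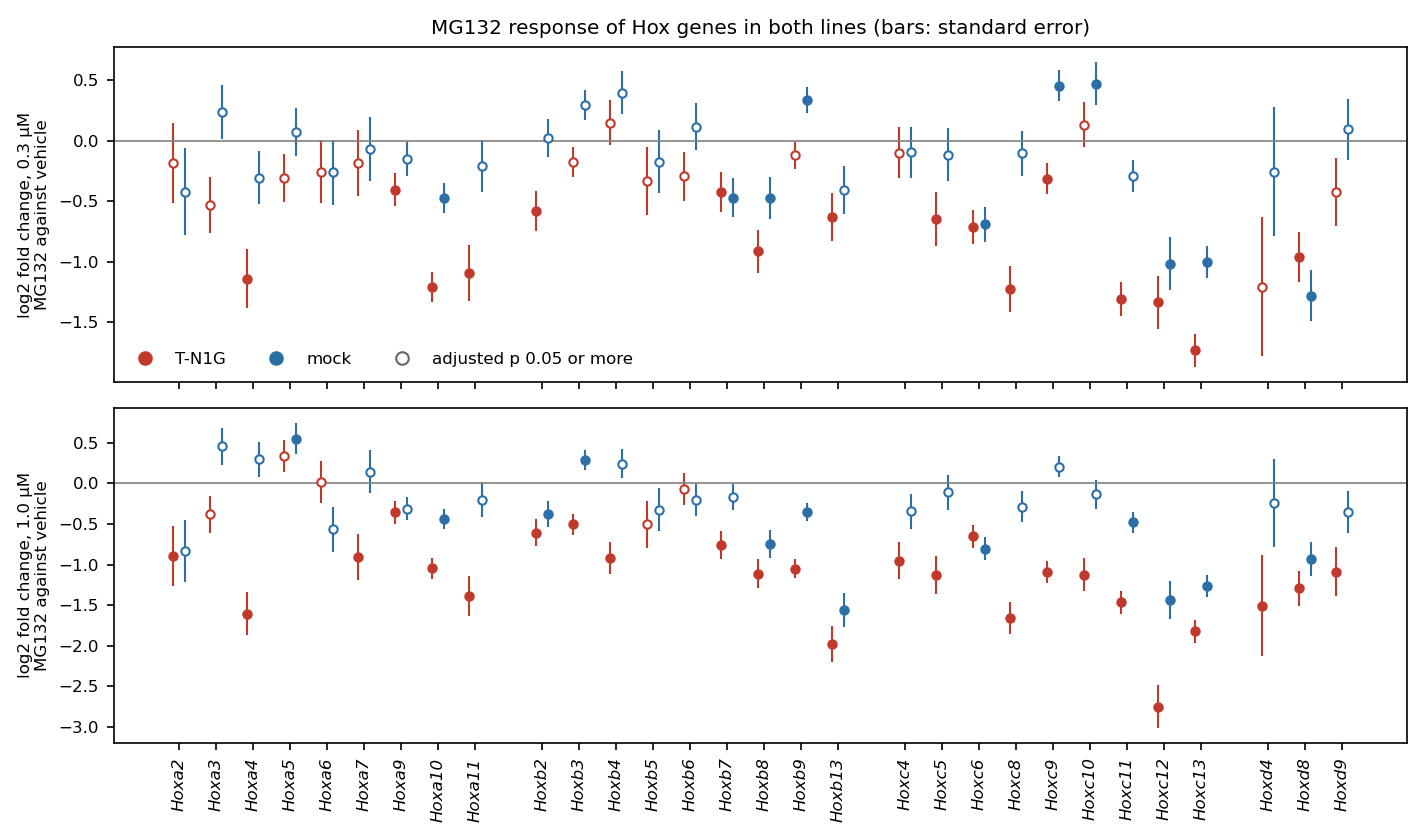
Log2 fold change of Hox genes at 0.3 µM (top) and 1.0 µM MG132 (bottom) against vehicle, in T-N1G (red) and mock cells (blue); bars are standard errors and filled points have an adjusted p under 0.05. At 1.0 µM 25 of the red points are filled and below 0, against 10 of the blue ones.

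Summed over the 31 genes, the Hox level in T-N1G cells was 347 ± 13.7 CPM under vehicle, 237 ± 6.76 CPM at 0.3 µM and 192 ± 31.4 CPM at 1.0 µM (SD, n = 3 each). In mock cells it was 352 ± 10.9, 342.0 ± 15.8 and 277.0 ± 33.1 CPM. The mean level fell at each dose step for 21 genes in T-N1G cells and for 13 in mock cells, and the lowest of the 6 group means was that of T-N1G cells at 1.0 µM for 21 of 31. The summed fibroblast markers also fell, to 4880 to 5400 CPM (0.3 µM) and 2880 to 4410 CPM (1.0 µM) in T-N1G cells. In mock cells they were at 7580 to 8150 and 4280 to 5440 CPM. At 0.3 µM the mock marker sums were below the vehicle range of 9320 to 10200 CPM, while the mock Hox sums overlapped those under vehicle. In bulk RNA, fewer cells of a kind and less RNA per cell cannot be told apart. Endothelial markers (5 summed, mostly Kdr) reached 24.5 to 37.9 CPM in T-N1G and 63.2 to 86.7 CPM in mock cells at 1.0 µM. The endothelial markers Tie1 and Emcn were at or near 0. Between the lines at that dose, Kdr was lower in T-N1G cells (log2 -1.27 ± 0.17, adjusted p = 5.08e-06). Pecam1 of the same list went the other way (2.57 ± 0.51, adjusted p = 0.000270), and Cdh5 did not pass (0.40 ± 0.35). The part of these marker shifts, and of the higher level of T-N1G RNA, in the Hox result was not tested. Over all libraries the summed level was 2.04 to 5.58 CPM for 6 leukocyte, 0.73 to 17.0 CPM for 5 epithelial, 266 to 376 CPM for 5 neural and 0.24 to 4.15 CPM for 4 skeletal muscle markers.

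The genes at the 5′ end, paralogue numbers 9 to 13, were lower in 11 of 11 cases in T-N1G cells at 1.0 µM (38.9% of all genes), and 6 of 11 fell in mock cells (37.4% of all genes). Hoxc13 had 18.8, 16.2 and 18.4 CPM under vehicle, 5.35, 4.20 and 6.50 CPM at 0.3 µM and 5.89, 4.57 and 4.66 CPM at 1.0 µM in T-N1G cells. Mock cells held Hoxc13 at 16.1, 16.0 and 15.4 CPM under vehicle, 8.04, 8.17 and 7.46 CPM at 0.3 µM and 5.86, 6.71 and 7.15 CPM at 1.0 µM. In each line the vehicle libraries were all above the treated ones, and Hoxc13 fell at 0.3 µM by more in T-N1G cells (-1.73 ± 0.14, adjusted p = 7.03e-09) than in mock cells (-1.004 ± 0.13, adjusted p = 6.21e-06), with an interaction of -0.73 ± 0.19, adjusted p = 0.00928. The interaction is the log2 fold change in T-N1G cells minus that in mock cells, tested in the same fit.

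Hoxc12, the neighbour of Hoxc13, had the largest fold change of the 31. Its level was 3.89, 3.45 and 3.498 CPM under vehicle, 1.34, 1.37 and 1.58 CPM at 0.3 µM and 0.307, 0.789 and 0.488 CPM at 1.0 µM in T-N1G cells. Mock cells held Hoxc12 at 3.09, 3.24 and 2.92 CPM under vehicle, 1.19, 1.76 and 1.61 CPM at 0.3 µM and 1.296, 1.32 and 0.816 CPM at 1.0 µM. All treated libraries were below all vehicle libraries in both lines, and at 1.0 µM Hoxc12 was 6.72-fold lower than under vehicle in T-N1G cells (log2 -2.75 ± 0.26, adjusted p = 2.26e-08) and 2.70-fold lower in mock cells (log2 -1.43 ± 0.23, adjusted p = 2.45e-05). The interaction at 1.0 µM was -1.31 ± 0.36, adjusted p = 0.00612. At that dose the T-N1G libraries held 5, 14 and 9 fragments of this gene.

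Hoxc11 had 6.30, 6.26 and 5.16 CPM under vehicle, 2.48, 2.12 and 2.53 CPM at 0.3 µM and 2.09, 2.25 and 2.06 CPM at 1.0 µM in T-N1G cells. Mock cells held Hoxc11 at 5.43, 5.79 and 5.07 CPM under vehicle, 4.67, 4.503 and 4.14 CPM at 0.3 µM and 3.66, 4.33 and 3.69 CPM at 1.0 µM. The lines overlapped under vehicle and separated at both doses, and the interaction was -1.02 ± 0.19, adjusted p = 0.000702 at 0.3 µM and -0.99 ± 0.19, adjusted p = 0.000481 at 1.0 µM. Hoxc10, which specifies lumbar motor neurons with its paralogues, had 7.46, 7.36 and 7.50 CPM under vehicle, 8.27, 6.93 and 9.27 CPM at 0.3 µM and 2.33, 4.85 and 3.03 CPM at 1.0 µM in T-N1G cells. Mock cells held Hoxc10 at 11.5, 9.81 and 9.45 CPM under vehicle, 15.3, 13.3 and 14.1 CPM at 0.3 µM and 7.72, 11.2 and 9.11 CPM at 1.0 µM. Its lowering in T-N1G cells came only at the higher dose, where every library was below the others of its line (-1.12 ± 0.20, adjusted p = 5.92e-05), while in mock cells it rose at 0.3 µM (0.47 ± 0.18, adjusted p = 0.0317).

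Hoxc9, the determinant of thoracic motor neurons, had 8.20, 8.93 and 8.84 CPM under vehicle, 7.18, 6.53 and 7.16 CPM at 0.3 µM and 4.24, 4.45 and 3.47 CPM at 1.0 µM in T-N1G cells. Mock cells held Hoxc9 at 9.21, 8.66 and 7.30 CPM under vehicle, 11.8, 12.1 and 10.6 CPM at 0.3 µM and 11.3, 9.29 and 8.54 CPM at 1.0 µM. Hoxc9 rose in mock cells at 0.3 µM (0.46 ± 0.13, adjusted p = 0.00532) and fell in T-N1G cells at 1.0 µM (-1.09 ± 0.14, adjusted p = 8.52e-07), and its interaction at 1.0 µM was -1.30 ± 0.19, adjusted p = 2e-05. Hoxb9 had 53.4, 56.6 and 67.1 CPM under vehicle, 49.4, 53.8 and 59.8 CPM at 0.3 µM and 26.1, 34.4 and 25.1 CPM at 1.0 µM in T-N1G cells. Mock cells held Hoxb9 at 85.8, 94.9 and 97.9 CPM under vehicle, 118, 118 and 117 CPM at 0.3 µM and 74.5, 78.6 and 65.7 CPM at 1.0 µM. The 0.3 µM libraries of mock cells were above all others, and the 1.0 µM libraries of T-N1G cells were below all others.

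Hoxb13 had 9.41, 10.8 and 13.03 CPM under vehicle, 7.73, 6.63 and 7.16 CPM at 0.3 µM and 2.09, 4.17 and 2.17 CPM at 1.0 µM in T-N1G cells. Mock cells held Hoxb13 at 10.1, 10.4 and 12.6 CPM under vehicle, 7.44, 9.64 and 7.80 CPM at 0.3 µM and 3.04, 4.59 and 3.55 CPM at 1.0 µM. Here the lines overlapped at every dose, and the log2 fold changes at 1.0 µM were -1.98 ± 0.22, adjusted p = 2.02e-07 in T-N1G and -1.56 ± 0.21, adjusted p = 3.46e-06 in mock cells, with an interaction of -0.41 ± 0.31 (adjusted p = 0.288). Hoxa9 had 50.7, 42.1 and 46.7 CPM under vehicle, 37.9, 34.6 and 32.9 CPM at 0.3 µM and 36.2, 41.8 and 30.9 CPM at 1.0 µM in T-N1G cells. Mock cells held Hoxa9 at 31.2, 29.7 and 33.6 CPM under vehicle, 30.8, 28.7 and 25.8 CPM at 0.3 µM and 28.5, 29.2 and 18.8 CPM at 1.0 µM. At 1.0 µM it was the one gene called higher in T-N1G cells, and it was also higher there under vehicle, while its fall at 1.0 µM in T-N1G cells was small (-0.36 ± 0.14, adjusted p = 0.0261).

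Hoxa10 had 54.5, 50.02 and 54.0 CPM under vehicle, 23.2, 24.4 and 21.1 CPM at 0.3 µM and 29.5, 27.5 and 19.8 CPM at 1.0 µM in T-N1G cells. Mock cells held Hoxa10 at 37.3, 36.2 and 39.6 CPM under vehicle, 25.6, 30.9 and 25.1 CPM at 0.3 µM and 30.0, 29.1 and 24.2 CPM at 1.0 µM. The gene fell at both doses in both lines, to levels that overlapped at 1.0 µM, T-N1G cells stood higher under vehicle, and the interaction was -0.74 ± 0.17, adjusted p = 0.00472 at 0.3 µM and -0.61 ± 0.17, adjusted p = 0.00876 at 1.0 µM. Hoxa11, needed with Hoxd11 for the forearm bones, had 2.78, 2.12 and 2.163 CPM under vehicle, 0.793, 1.37 and 1.15 CPM at 0.3 µM and 0.983, 0.846 and 0.867 CPM at 1.0 µM in T-N1G cells. Mock cells held Hoxa11 at 2.62, 2.31 and 2.37 CPM under vehicle, 2.38, 2.105 and 1.85 CPM at 0.3 µM and 1.47, 2.38 and 2.49 CPM at 1.0 µM. It fell in T-N1G cells at both doses (-1.09 ± 0.23, adjusted p = 0.000530 at 0.3 µM and -1.39 ± 0.24, adjusted p = 5.04e-05 at 1.0 µM), its values at both doses were below all mock libraries of the same dose, and its log2 fold change in mock cells was -0.21 and -0.20, neither past the test.

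Hoxd9, a gene of the lower back and forelimb, had 1.11, 1.52 and 2.12 CPM under vehicle, 0.941, 0.961 and 1.62 CPM at 0.3 µM and 0.614, 0.958 and 0.650 CPM at 1.0 µM in T-N1G cells. Mock cells held Hoxd9 at 1.75, 2.45 and 2.51 CPM under vehicle, 2.23, 2.69 and 2.24 CPM at 0.3 µM and 1.52, 2.17 and 1.58 CPM at 1.0 µM. It fell in T-N1G cells at 1.0 µM, with a log2 fold change of -1.09 ± 0.31, adjusted p = 0.00371, and its interaction there, -0.74 ± 0.40, did not pass (adjusted p = 0.149).

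**Figure D3:**
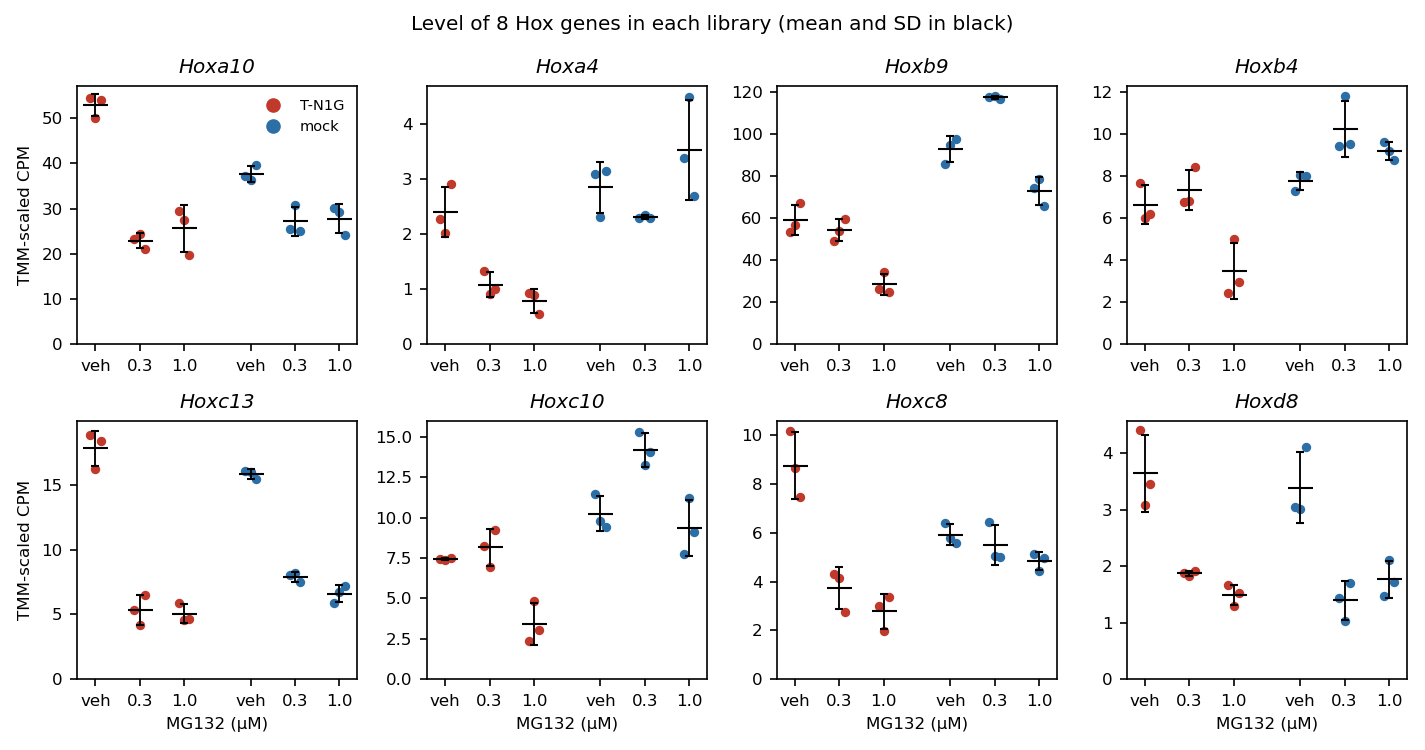
TMM-scaled CPM of 8 Hox genes in each library by dose of MG132, with T-N1G cells (red) left of mock cells (blue); black marks are the mean and SD of 3 libraries. Hoxb9, Hoxb4 and Hoxc10 are higher at 0.3 µM than under vehicle by mean in mock cells and lowest at 1.0 µM in T-N1G cells, whereas Hoxd8 is lower at both doses in both lines.

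Of the genes in the middle of the clusters, numbers 5 to 8, 7 of 11 fell in T-N1G cells at 1.0 µM, where 38.9% of all genes did, and 3 of 11 in mock cells, where 37.4% of all genes did. Hoxc8 had 10.2, 8.65 and 7.46 CPM under vehicle, 4.31, 4.15 and 2.77 CPM at 0.3 µM and 3.01, 1.97 and 3.36 CPM at 1.0 µM in T-N1G cells. Mock cells held Hoxc8 at 6.40, 5.79 and 5.57 CPM under vehicle, 6.45, 5.04 and 5.02 CPM at 0.3 µM and 5.13, 4.43 and 4.99 CPM at 1.0 µM. From the higher vehicle level in T-N1G cells it fell below mock cells at both doses, with an interaction of -1.12 ± 0.27, adjusted p = 0.00450 at 0.3 µM and -1.37 ± 0.27, adjusted p = 0.000541 at 1.0 µM. Hoxb8, known from blood and microglia, had 12.6, 12.2 and 14.1 CPM under vehicle, 6.79, 6.37 and 7.45 CPM at 0.3 µM and 5.22, 8.01 and 4.71 CPM at 1.0 µM in T-N1G cells. Mock cells held Hoxb8 at 11.6, 12.6 and 14.3 CPM under vehicle, 9.28, 9.54 and 8.88 CPM at 0.3 µM and 7.83, 9.29 and 5.76 CPM at 1.0 µM. It fell in both lines at both doses, with log2 fold changes at 1.0 µM of -1.11 in T-N1G and -0.75 in mock cells.

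Hoxd8 had 4.40, 3.08 and 3.45 CPM under vehicle, 1.88, 1.82 and 1.91 CPM at 0.3 µM and 1.66, 1.297 and 1.52 CPM at 1.0 µM in T-N1G cells. Mock cells held Hoxd8 at 3.04, 3.01 and 4.11 CPM under vehicle, 1.44, 1.03 and 1.71 CPM at 0.3 µM and 1.47, 2.11 and 1.73 CPM at 1.0 µM. Treated libraries were below vehicle libraries in both lines, and the fold change at 0.3 µM was -0.96 ± 0.21, adjusted p = 0.000595 in T-N1G and -1.28 ± 0.21, adjusted p = 6.94e-05 in mock cells. The interaction was 0.32 ± 0.30 at 0.3 µM (adjusted p = 0.477) and -0.36 ± 0.30 at 1.0 µM (adjusted p = 0.361). Hoxc6 had 30.0, 28.5 and 27.8 CPM under vehicle, 17.3, 17.8 and 17.5 CPM at 0.3 µM and 21.9, 19.9 and 13.4 CPM at 1.0 µM in T-N1G cells. Mock cells held Hoxc6 at 25.0, 24.6 and 27.6 CPM under vehicle, 15.5, 17.0 and 15.3 CPM at 0.3 µM and 16.6, 15.9 and 11.8 CPM at 1.0 µM. It too fell at both doses in both lines, with log2 fold changes at 0.3 and 1.0 µM of -0.71 and -0.65 in T-N1G and -0.69 and -0.80 in mock cells.

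Hoxa7, a gene of the thoracic spine, had 6.39, 6.49 and 6.31 CPM under vehicle, 4.36, 6.48 and 6.07 CPM at 0.3 µM and 2.15, 5.81 and 2.28 CPM at 1.0 µM in T-N1G cells. Mock cells held Hoxa7 at 6.26, 8.01 and 6.57 CPM under vehicle, 6.40, 7.68 and 5.80 CPM at 0.3 µM and 6.14, 9.72 and 7.15 CPM at 1.0 µM. At 1.0 µM the second T-N1G library stood apart from the others of its group. Hoxb7 had 6.72, 6.76 and 6.81 CPM under vehicle, 5.15, 4.25 and 5.73 CPM at 0.3 µM and 3.56, 5.30 and 3.14 CPM at 1.0 µM in T-N1G cells. Mock cells held Hoxb7 at 7.83, 7.50 and 9.77 CPM under vehicle, 5.71, 6.17 and 6.24 CPM at 0.3 µM and 6.88, 7.45 and 8.01 CPM at 1.0 µM. Both fell in T-N1G cells at 1.0 µM, with log2 fold changes of -0.90 for Hoxa7 and -0.76 for Hoxb7, and had interactions of -1.05 ± 0.39, adjusted p = 0.0362 and -0.59 ± 0.23, adjusted p = 0.0481.

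Hoxc5 had 3.52, 3.22 and 3.68 CPM under vehicle, 2.43, 1.92 and 2.29 CPM at 0.3 µM and 1.53, 2.25 and 0.975 CPM at 1.0 µM in T-N1G cells. Mock cells held Hoxc5 at 3.45, 3.56 and 3.92 CPM under vehicle, 3.03, 3.87 and 3.22 CPM at 0.3 µM and 4.40, 2.85 and 2.93 CPM at 1.0 µM. It fell at both doses in T-N1G cells, and in mock cells its log2 fold change was -0.11 at each dose, not past the test. Hoxa5, needed for the lung and the trachea, had 5.004, 4.19 and 5.38 CPM under vehicle, 3.77, 3.997 and 4.01 CPM at 0.3 µM and 7.31, 6.65 and 4.497 CPM at 1.0 µM in T-N1G cells. Mock cells held Hoxa5 at 5.34, 4.44 and 4.52 CPM under vehicle, 5.51, 5.53 and 3.999 CPM at 0.3 µM and 7.38, 8.40 and 5.28 CPM at 1.0 µM. It rose in mock cells at 1.0 µM (0.55 ± 0.19, adjusted p = 0.0162), a call lost without mock 1.0 µM library 2 (log2 0.47, adjusted p = 0.0519), and passed no other test.

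Hoxb6 had 6.76, 6.44 and 8.88 CPM under vehicle, 6.14, 5.82 and 6.07 CPM at 0.3 µM and 7.49, 8.46 and 5.15 CPM at 1.0 µM in T-N1G cells. Mock cells held Hoxb6 at 9.21, 10.5 and 8.53 CPM under vehicle, 10.9, 11.2 and 8.44 CPM at 0.3 µM and 9.13, 9.66 and 5.71 CPM at 1.0 µM. It changed with MG132 in neither line by the test, but at 0.3 µM it was lower in T-N1G cells than in mock cells (-0.76 ± 0.20, adjusted p = 0.00416). Hoxa6 passed none of the 9 comparisons and had 0.528 to 1.15 CPM over all libraries. Hoxb5 had 0.867 to 2.64 CPM.

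Of the genes at the 3′ end, numbers 1 to 4, 7 of 9 fell in T-N1G cells at 1.0 µM (38.9% of all genes), and 1 of 9 fell and 1 rose in mock cells (37.4% and 32.4% of all genes). Hoxa4, which patterns the neck vertebrae, had 2.27, 2.02 and 2.90 CPM under vehicle, 1.34, 0.911 and 1.00 CPM at 0.3 µM and 0.921, 0.902 and 0.542 CPM at 1.0 µM in T-N1G cells. Mock cells held Hoxa4 at 3.09, 2.31 and 3.15 CPM under vehicle, 2.28, 2.35 and 2.29 CPM at 0.3 µM and 3.38, 4.49 and 2.69 CPM at 1.0 µM. The lines overlapped under vehicle and did not overlap at either dose. At 1.0 µM Hoxa4 was 4.45-fold lower in T-N1G than in mock cells (log2 -2.15 ± 0.26, adjusted p = 1.02e-06), and its interaction, -1.91 ± 0.34, adjusted p = 0.000197, was the largest in size of the 31 at this dose. The T-N1G libraries of that dose held 15, 16 and 10 fragments of Hoxa4. Its deposited position is shared with Hoxa3, Hoxa5 and Hoxa6, so its counts are uncertain.

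Hoxb4, known for expanding blood stem cells, had 7.69, 5.98 and 6.21 CPM under vehicle, 6.79, 6.83 and 8.45 CPM at 0.3 µM and 2.46, 5.02 and 2.98 CPM at 1.0 µM in T-N1G cells. Mock cells held Hoxb4 at 7.28, 8.05 and 7.99 CPM under vehicle, 9.43, 11.8 and 9.51 CPM at 0.3 µM and 9.64, 9.19 and 8.78 CPM at 1.0 µM. It fell in T-N1G cells at the higher dose (-0.92 ± 0.20, adjusted p = 0.000347), in all 3 libraries below those under vehicle, while the treated mock libraries were all above those under vehicle without passing the test. The interaction at 1.0 µM was -1.17 ± 0.27, adjusted p = 0.00165. Hoxb2 had 12.4, 12.1 and 11.9 CPM under vehicle, 9.21, 8.25 and 6.88 CPM at 0.3 µM and 9.33, 8.68 and 5.96 CPM at 1.0 µM in T-N1G cells. Mock cells held Hoxb2 at 13.4, 10.97 and 12.5 CPM under vehicle, 13.1, 13.02 and 11.4 CPM at 0.3 µM and 10.8, 10.3 and 7.39 CPM at 1.0 µM. It fell in T-N1G cells at both doses (log2 fold changes of -0.58 and -0.60) and in mock cells at 1.0 µM (-0.37 ± 0.16, adjusted p = 0.0483).

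Hoxd4 had 0.973, 0.414 and 1.24 CPM under vehicle, 0.198, 0.303 and 0.621 CPM at 0.3 µM and 0.184, 0.676 and 0.0542 CPM at 1.0 µM in T-N1G cells. Mock cells held Hoxd4 at 0.507, 0.833 and 1.00 CPM under vehicle, 0.447, 0.734 and 0.780 CPM at 0.3 µM and 0.451, 1.11 and 0.432 CPM at 1.0 µM. With 1 to 27 fragments in a library, its groups overlapped throughout, and its fall in T-N1G cells at 1.0 µM (-1.504 ± 0.62, adjusted p = 0.0347) had the largest standard error of the 25. Hoxb3 ran over 6.57 to 15.1 CPM and was the one gene that fell in T-N1G cells at 1.0 µM (-0.50 ± 0.13, adjusted p = 0.00197) and rose in mock cells (0.29 ± 0.12, adjusted p = 0.0473). Hoxa3, a gene of the thymus and parathyroid, ran over 1.57 to 3.89 CPM. Hoxa2, which sets the identity of the second pharyngeal arch, ran over 0.192 to 0.926 CPM and Hoxc4 over 1.73 to 5.62 CPM.

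Of the 25 genes that fell at 1.0 µM in T-N1G cells, 10 fell in mock cells too, 14 were not called there and 1, Hoxb3, rose. Both doses lowered 16 genes in T-N1G cells and 6 in mock cells, and those 6 fell at both doses in both lines. Of all genes, 30.3% fell at 0.3 µM and 38.9% at 1.0 µM in T-N1G cells, and 28.1% and 37.4% in mock cells. The shares of all genes with these joint calls are not given here, so the overlaps are counts only. Of the 25 calls, 21 held under every alternative. Those of Hoxa2, Hoxa7, Hoxa9 and Hoxd4 were lost under some, with an adjusted p of up to 0.167 for Hoxa2, 0.149 for Hoxa9 and 0.157 for Hoxd4 without T-N1G 1.0 µM library 3, and 0.0573 for Hoxa7 without library 1 of that group. In mock cells 8 of the 12 calls at 1.0 µM held, and the highest adjusted p of the others was 0.0519 for Hoxa5 (without mock 1.0 µM library 2), 0.255 for Hoxb2 (without mock vehicle library 1), 0.189 for Hoxb3 (with library size only) and 0.103 for Hoxb9 (without mock vehicle library 3). At 0.3 µM, 11 of 17 calls held in T-N1G cells, and calls that did not hold reached 0.0979 for Hoxa9 (without T-N1G vehicle library 1), 0.154 for Hoxb7 (without T-N1G 0.3 µM library 2), 0.0825 for Hoxb13 (without T-N1G vehicle library 3), 0.0761 for Hoxc5 (without T-N1G 0.3 µM library 2) and 0.136 for Hoxc9 (without T-N1G vehicle library 2). In mock cells 6 of 10 held at that dose, the others reaching 0.161 for Hoxb7 (without mock vehicle library 3), 0.146 for Hoxb8 (without mock vehicle library 3), 0.0537 for Hoxb9 (without mock vehicle library 1) and 0.108 for Hoxc10 (without mock 0.3 µM library 1). The split of calls in mock cells moved with the scaling of the libraries, with 2 higher and 10 lower at 1.0 µM under TMM, 4 and 9 under RLE and 1 and 13 with library size only, and with 3 and 7, 4 and 7, and 1 and 8 at 0.3 µM.

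Set side by side at the same dose of MG132, T-N1G cells held less summed RNA of Hoxb and Hoxc than mock cells. Hoxb was already lower under vehicle, at 127.8 ± 10.4 CPM in T-N1G and 168 ± 9.24 CPM in mock cells. The Hoxd sums overlapped at 0.3 µM (3.02 to 4.155 and 4.119 to 4.73 CPM) but not at 1.0 µM (2.22 to 2.93 and 3.44 to 5.39 CPM). Of the 3 Hoxd genes, 1 was lower in T-N1G cells at each dose. Hoxd8 was higher there by mean at 0.3 µM (1.87 against 1.39 CPM). The summed Hoxa level was close, at 75.9 ± 2.75 CPM in T-N1G and 78.9 ± 6.65 CPM in mock cells at 0.3 µM. At 1.0 µM it was 80.7 ± 12.6 and 81.2 ± 12.9 CPM (SD, n = 3 each). Of the 10 Hoxa genes, 2 were lower in T-N1G cells at 0.3 µM, and 4 were lower and 1 higher at 1.0 µM. At 0.3 µM, 15 of 31 genes were lower in T-N1G cells and 0 higher, where 48.5% of all genes passed (25% higher, 23.5% lower), with a median log2 difference of -0.53 over the Hox genes and 0.01 over all genes. At 1.0 µM, 18 were lower and 1 higher, where 61.9% passed (30.7% higher, 31.3% lower), with medians of -0.71 and -0.01. The largest differences at 1.0 µM after that of Hoxa4 were those of Hoxc10 (-1.45 ± 0.20, adjusted p = 5.34e-06), Hoxb4 (-1.40 ± 0.19, adjusted p = 6.35e-06), Hoxb9 (-1.35 ± 0.12, adjusted p = 1.32e-08) and Hoxc9 (-1.26 ± 0.14, adjusted p = 3.13e-07). At 0.3 µM they were those of Hoxb9 (-1.11 ± 0.11, adjusted p = 2.44e-07), Hoxa4 (-1.09 ± 0.25, adjusted p = 0.00141) and Hoxd9 (-1.02 ± 0.27, adjusted p = 0.00480). The median of the other genes of chromosome 11 was -0.24 at 0.3 µM and -0.21 at 1.0 µM, against -0.59 and -0.71 for Hoxb. Of the calls, 11 of 15 at 0.3 µM and 13 of 19 at 1.0 µM held under every alternative, with exceptions whose highest adjusted p was, at 0.3 µM, 0.162 for Hoxb4 (without mock 0.3 µM library 2), 0.187 for Hoxb5 (without T-N1G 0.3 µM library 2), 0.136 for Hoxc5 (without mock 0.3 µM library 2) and 0.128 for Hoxc8 (without T-N1G 0.3 µM library 3). At 1.0 µM it was 0.113 for Hoxa3 (without T-N1G 1.0 µM library 1), 0.0609 for Hoxa9 (with only the groups compared), 0.162 for Hoxb5 (without mock 1.0 µM library 2), 0.0913 for Hoxc4 (with only the groups compared), 0.0536 for Hoxc12 (with only the groups compared) and 0.119 for Hoxc13 (with only the groups compared).

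The test of the difference itself, the interaction of line and MG132, was past the threshold for 7 Hox genes at 0.3 µM and for 16 at 1.0 µM, all with the lower response in T-N1G cells. At 0.3 µM 25.1% of all genes passed (14.2% higher, 11% lower), and at 1.0 µM 45% did (22.9% higher, 22.1% lower). The median interaction was -0.41 at 0.3 µM and -0.61 at 1.0 µM over the 31 genes, against 0 and -0.02 over all genes. The 7 genes of the lower dose were Hoxa10, Hoxa11, Hoxb9, Hoxc8, Hoxc9, Hoxc11 and Hoxc13, and all 7 were among the 16 of the higher dose. The 9 added there were Hoxa3, Hoxa4, Hoxa7, Hoxb3, Hoxb4, Hoxb7, Hoxc5, Hoxc10 and Hoxc12.

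**Figure D4:**
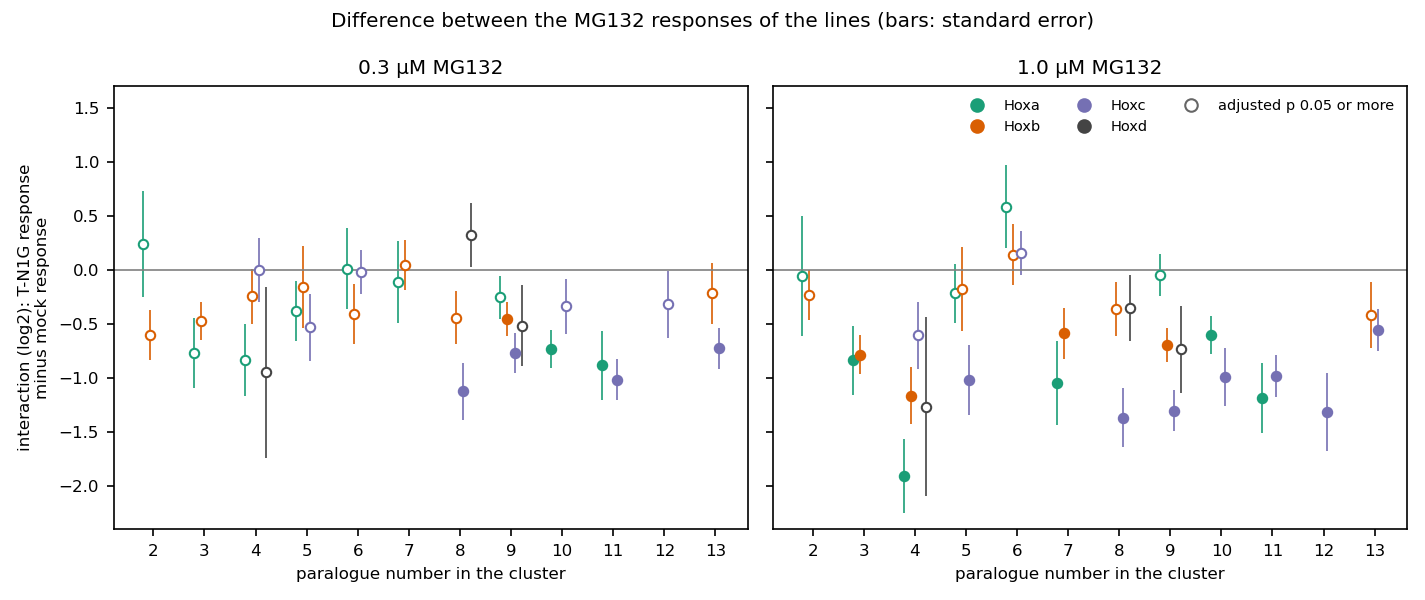
Interaction on the log2 scale (T-N1G response minus mock response) at 0.3 µM (left) and 1.0 µM MG132 (right) by paralogue number and cluster; bars are standard errors and filled points have an adjusted p under 0.05. At 0.3 µM 6 of the 7 filled points have numbers 9 to 13, and at 1.0 µM filled points run from number 3 to number 13.

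By position at 0.3 µM, where 25.1% of all genes passed (14.2% higher, 11% lower), the interaction passed for 0 of 9 genes with numbers 1 to 4. It passed for 1 of 11 with numbers 5 to 8 and 6 of 11 with numbers 9 to 13. At 1.0 µM the counts were 4 of 9, 4 of 11 and 8 of 11, and the median interactions were -0.79, -0.36 and -0.74. By cluster, 5 of 10 Hoxa, 4 of 9 Hoxb, 7 of 9 Hoxc and 0 of 3 Hoxd genes passed at 1.0 µM. Of all genes 45% passed at this dose (22.9% higher, 22.1% lower). The counts of Hoxa, Hoxb and numbers 1 to 4 were near the total share, with every Hox call lower. Hoxc had the lowest median, -0.99, and Hoxd, with 3 genes of few fragments, had a median of -0.74 with standard errors of 0.30 to 0.83. No test set one position or cluster against another. Of the calls, 5 of 7 at 0.3 µM and 12 of 16 at 1.0 µM held under every alternative. The highest adjusted p of the exceptions was, at 0.3 µM, 0.137 for Hoxa11 (without T-N1G 0.3 µM library 1) and 0.120 for Hoxb9 (without T-N1G vehicle library 3). At 1.0 µM it was 0.0871 for Hoxa3 (without T-N1G 1.0 µM library 1), 0.0840 for Hoxa7 (without T-N1G 1.0 µM library 1), 0.0987 for Hoxb7 (without T-N1G 1.0 µM library 3) and 0.0636 for Hoxc13 (without mock 1.0 µM library 3).

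Noncoding genes of the clusters were read at low levels, and 5 of the 17 in the table were tested. Hotair, a noncoding gene of the Hoxc cluster, averaged 1.22 ± 0.236, 0.723 ± 0.0633 and 1.65 ± 0.402 CPM in T-N1G cells and 0.813 ± 0.0544, 0.949 ± 0.169 and 2.24 ± 0.183 CPM in mock cells from vehicle to 1.0 µM (SD, n = 3 each). It rose in mock cells at 1.0 µM (log2 1.46 ± 0.23, adjusted p = 1.62e-05), where its Hoxc neighbours fell or did not pass, and its interaction there was -1.02 ± 0.32 (adjusted p = 0.0143). Mira, a noncoding gene of the Hoxa cluster, fell in T-N1G cells at 1.0 µM (-1.23 ± 0.24, adjusted p = 0.000156). Hoxa11os and Hoxb5os fell there too, each at a position shared with a coding gene.

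Genes that flank the clusters passed the interaction test in both directions. At 1.0 µM the interaction passed for 3 higher and 2 lower of 9 tested beside Hoxa, 3 and 0 of 8 beside Hoxb, 2 and 1 of 11 beside Hoxc and 2 and 1 of 8 beside Hoxd, where 22.9% of all genes were higher and 22.1% lower. Of the 3 beside Hoxb, 1 is Nfe2l1, whose reads in T-N1G cells cannot be told apart from those of the T-N1G construct, and the others are Atp5g1 and Igf2bp1. Beside Hoxa, Snx10, which encodes a sorting nexin, rose in T-N1G cells at 1.0 µM (log2 2.36 ± 0.13, adjusted p = 1.41e-11). Beside Hoxb, Copz2, a gene of the vesicle coat, fell in both lines at that dose, with log2 fold changes of -1.70 in T-N1G and -1.79 in mock cells. The genes that border Hoxa and Hoxd at their 5′ ends, Evx1 and Evx2, had at most 1 fragment in any library.

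Other transcription factors of limb and body position were lower in T-N1G cells relative to mock cells wherever the interaction passed. The list holds 36 genes, homeobox and T-box genes with Gli3 and Hand2 added, and 22 were tested, Gli3 among them. The interaction passed for 13 of the 22 at 0.3 µM and 15 at 1.0 µM, all lower, with medians of -0.61 and -0.71, where 11% and 22.1% of all genes were lower. At 1.0 µM they included Lhx2, a limb and forebrain gene (-2.37 ± 0.24, adjusted p = 3.14e-07) and Tbx2, a limb and heart gene (-1.86 ± 0.53, adjusted p = 0.00833). In mock cells at 1.0 µM 12 of the 22 rose and 5 fell, against 32.4% and 37.4% of all genes.

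The counts that follow are read against all genes, of which 38.9% fell and 37.5% rose in T-N1G cells at 1.0 µM, 37.4% fell and 32.4% rose in mock cells, and 22.1% had a lower and 22.9% a higher interaction. Several of the counts, such as those of TALE genes in mock cells, are near these shares. Of the 11 TALE homeodomain genes, whose proteins bind DNA together with Hox proteins, 6 fell and 3 rose in T-N1G cells at 1.0 µM, and 5 fell and 3 rose in mock cells. Meis2 (-1.45 ± 0.29, adjusted p = 0.000627) and Pbx3 (-0.75 ± 0.13, adjusted p = 0.000109) had lower interactions at 1.0 µM, and Pbx4 a higher one (1.69 ± 0.39, adjusted p = 0.00177). Among 19 genes of Polycomb repressive complex 1, 14 fell and 2 rose in T-N1G cells at 1.0 µM, and 11 fell and 2 rose in mock cells. Cbx8, a reader of the Polycomb mark, had the largest fall in T-N1G cells (-2.03 ± 0.16, adjusted p = 1.63e-09). Among 11 genes of complex 2, Phf1 rose in T-N1G cells (2.35 ± 0.09, adjusted p = 1.74e-13) and Ezh2, the methyltransferase, had an interaction of -1.06 ± 0.14 (adjusted p = 1.03e-05). Of 10 genes of chromatin architecture, such as cohesin, 2 had higher and 6 lower interactions at 1.0 µM. Of 16 Trithorax genes, 9 rose and 4 fell in T-N1G cells, and 5 rose and 6 fell in mock cells. The 12 tested genes of retinoic acid handling and Cdx, upstream of Hox genes in the embryo, had 2 higher and 6 lower interactions at 1.0 µM, among them Aldh1a1 (1.91 ± 0.37, adjusted p = 0.000433) and Cyp26b1 (-1.72 ± 0.36, adjusted p = 0.000760).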

How the data were processed

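Poly(A) RNA of 18 libraries was sequenced after strand-specific library preparation, per the labels' protocols. The submitters' processing notes name bcl2fastq 2.16.0.10, TopHat2 2.0.8b, Cuffdiff 2.1.1 and the build mm9. The deposited estimated counts, fragments per gene and library, are those of Cuffdiff, and 98.16 to 98.51% of them were whole within 1e-06 (100% for Hox genes). The authors' deposited FPKM were used only to compare levels between genes. The files number the libraries of a group from 0, the titles from 1, and the files abbreviate the group names; how these match is not spelled out in the sources used here. Genes unprocessed in some library (2) were left out.

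Estimated counts were rounded and tested with edgeR 4.0.16 (R 4.3.3, limma 3.58.1) by the quasi-likelihood test with TMM scaling, in 1 fit of the 6 group means over 13258 genes kept by filterByExpr. P-values were adjusted by Benjamini-Hochberg over all of them and called under 0.05. CPM are TMM-scaled. The interaction is the T-N1G response minus the mock response. Alternatives were RLE scaling, library size only, no filter, at least 50 fragments in 3 libraries, DESeq2 1.42.0, only the groups compared, a replicate block and each library left out. Leaving out both number 2 libraries of 1.0 µM was chosen after seeing the data. The test was tested on simulated data. The Hox genes and the other lists were chosen with earlier results of these data known. Values in all libraries are given for the 8 largest called changes per comparison and the 8 highest genes, and at most 3 called genes are named per other list, with genes that border a cluster. Some genes are counted but not reported by name or drawn here. Tables and figures were made with Python 3.11.15, pandas 2.3.3 and matplotlib 3.10.9.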

Additional observations from a re-analysis of the deposited data

Results flagged for a closer look

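For 23 results the response to MG132 differed between T-N1G and mock cells by the interaction test of edgeR, with the log2 fold change lower in T-N1G cells each time. At 0.3 µM the interaction was -0.74 for Hoxa10, -0.89 for Hoxa11, -0.46 for Hoxb9, -1.12 for Hoxc8, -0.77 for Hoxc9, -1.02 for Hoxc11 and -0.73 for Hoxc13. At 1.0 µM it was -0.84 for Hoxa3, -1.91 for Hoxa4, -1.05 for Hoxa7, -0.61 for Hoxa10 and -1.19 for Hoxa11. In Hoxb it was -0.79 for Hoxb3, -1.17 for Hoxb4, -0.59 for Hoxb7 and -0.70 for Hoxb9 at that dose. In Hoxc it was -1.02 for Hoxc5, -1.37 for Hoxc8, -1.30 for Hoxc9, -0.99 for Hoxc10, -0.99 for Hoxc11, -1.31 for Hoxc12 and -0.56 for Hoxc13. These values stand beside 25.1% and 45% of all genes past the same test at 0.3 and 1.0 µM.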

How the results depend on the processing

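Over 9 comparisons, 125 Hox calls were made and 89 held under every alternative, with 0 reversed. RLE scaling kept 122, library size only 120, no filter 118, DESeq2 119, only the groups compared 114 and both number 2 libraries of 1.0 µM left out 120, while at least 50 fragments in 3 libraries kept 119 of the 123 it could test. Leaving out 1 library at a time kept 2074 of 2250. The number called ranged over 2 to 5 for T-N1G against mock under vehicle (4 with all libraries), 12 to 17 at 0.3 µM (15) and 16 to 20 at 1.0 µM (19). For 0.3 and 1.0 µM against vehicle it ranged over 13 to 18 (17) and 21 to 26 (25) in T-N1G cells, and over 7 to 13 (10) and 9 to 13 (12) in mock cells. For the interaction it ranged over 5 to 9 (7) and 13 to 18 (16). The vehicle count was 2 without T-N1G vehicle library 1 or mock vehicle library 2, where 1301 and 1311 of all genes were called (1407 without mock vehicle library 1). With only the groups compared, it was 7 under vehicle (4882 of all genes, against 2141) and 13 for the interaction at 0.3 µM (5873, against 3332), and the cause was not tested. Library size only moved the median of all genes to -0.15 in T-N1G and -0.13 in mock cells at 1.0 µM, with Hox medians of -1.19 and -0.40. Same-numbered libraries were not paired by any label, and the correlation of their deviations ran from -0.133 to 0.777 over 45 pairs (median 0.187), with 17 of 18 libraries correlating best with their own number. With the replicate block, 124 of the 125 calls held, and the counts were 4, 16 and 19 between the lines from vehicle to 1.0 µM, 17 and 25 in T-N1G cells, 11 and 13 in mock cells, and 8 and 16 for the interaction. The lost call was Hoxa11 at 0.3 µM (adjusted p = 0.0519). Low depth limits Hoxa2, Hoxc12 and Hoxd4, which fell under 10 fragments in some libraries.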
